A study of Mus musculus with 32 samples.

Results

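An antibody is built from heavy chains and light chains, and the constant part of the heavy chain sets its class: Ighm gives IgM, Igha gives IgA, and Ighg1, Ighg2b, Ighg2c and Ighg3 give the IgG subclasses. B cells carry IgM first and exchange the constant gene when they switch class, and plasma cells, the antibody-secreting end stage, hold very large amounts of these RNAs. The joining chain, given here under its older symbol Igj, links IgM and IgA units into polymers that can be carried across the airway lining by the polymeric immunoglobulin receptor. Igkc encodes the kappa light chain constant part, and Mzb1 an endoplasmic reticulum protein that helps B cells and plasma cells to assemble and secrete antibody.

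The genes described are the antibody constant chain and plasma cell genes of a list of 10 symbols: Igj, Ighm, Ighd, Igha, Ighg1, Ighg2b, Ighg2c, Ighg3, Igkc and Mzb1. A row with the symbol was found for 9 of the 10 among the 35275 genes counted, and Ighd is not analysed here. RNA with poly(A) tails was sequenced from whole lung of C57B/6 mice in 32 libraries that form 8 groups. In the first experiment, mice without surgery breathed room air or cigarette smoke, with an exposure time of 5 months in all groups: 3 male air libraries, 3 female air libraries, 5 male smoke libraries and 5 female smoke libraries. In the second experiment all mice were female and all were exposed to cigarette smoke, after ovariectomy or sham surgery: 3 sham and 3 ovariectomy libraries at 3 months, and 5 sham and 5 ovariectomy libraries at 5 months. No air group belongs to the second experiment and no group is common to both, so that surgery and experiment cannot be told apart between them. In the first experiment the titles number the air libraries in a separate run from the smoke libraries. Each group of the second experiment has its own run of numbers. The labels do not say what the numbers stand for, and the groups compared cannot be told apart from it. The labels do not say that libraries of a group came from separate animals, so the p-values below measure the spread between libraries, which may be technical. Libraries held 13790052 to 24497332 counts. The 8 lung epithelium genes checked, Sftpc and Scgb1a1 among them, summed to between 110057 and 224927 TPM (counts divided by gene length, with every library brought to an equal sum) in every library. In 7 libraries the liver gene Alb exceeded 100 TPM: male air 1, female air 2, ovariectomy 3 months 2 and 3, sham 5 months 1 and 2, and ovariectomy 5 months 5.

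The 6 heavy chain genes lie in 1 cluster on the minus strand of chromosome 12 (GRCm38), with Ighm at 113418950 to 113422730 and Igha at 113258768 to 113260236, the order in which class switching can reach them. Igkc lies on chromosome 6 and Igj on chromosome 5. The last 60 coding bases of the secreted forms are shown because they hold the tail cysteine by which IgM and IgA take up the joining chain. They come from GENCODE M21 (GRCm38), read 5′ to 3′ on the gene's strand, and capitals mark the codon before the last amino acid codon where it encodes that cysteine.
Ighm, chr12:113420867-113420926: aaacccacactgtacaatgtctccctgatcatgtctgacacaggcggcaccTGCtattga
Igha, chr12:113258768-113258827: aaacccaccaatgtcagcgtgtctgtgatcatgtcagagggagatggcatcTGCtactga
Ighg2b, chr12:113306389-113306448: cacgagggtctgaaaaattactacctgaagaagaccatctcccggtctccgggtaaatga
Ighg2c, chr12:113287389-113287448: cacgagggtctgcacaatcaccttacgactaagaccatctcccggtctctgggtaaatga
Ighm and Igha end on a tail with this cysteine codon, TGC, while all 4 IgG genes have a glycine codon, GGT, at that place. The ends of Ighg2b and Ighg2c are close in sequence, and over the whole secreted coding part these genes shared 85.7% of bases, more than any other pair. Of the stretches of 50 bases in Ighg2b, 5.9% occur unchanged in Ighg2c, and none of 100 bases do, so that a share of short reads could fall to either gene. The other heavy chain genes shared no stretch of 50 bases. The gene spans in the count table take in 90.5% to 94.0% of the secreted transcripts of Igha, Ighg1, Ighg2b and Ighg3 but 38.3% to 40.8% of their membrane transcripts, so reads of the membrane forms of these 4 genes were counted only in part. They take in 99.8% of both Ighg2c transcripts, and for Ighm the span covers the secreted transcript and 83.7% of the membrane transcript. The gene length given for Ighm, 1424 bases, is however shorter than its secreted transcript of 1493 bases. Part of the secreted Ighm form may thus lie outside the bases counted, which bears on the class shares and the ratio of Igj to Ighm. Membrane-form reads also count unequally between genes in the class shares and in the ratio of Ighg2c to Ighg2b. The size of these effects was not tested.

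**Figure D1:**
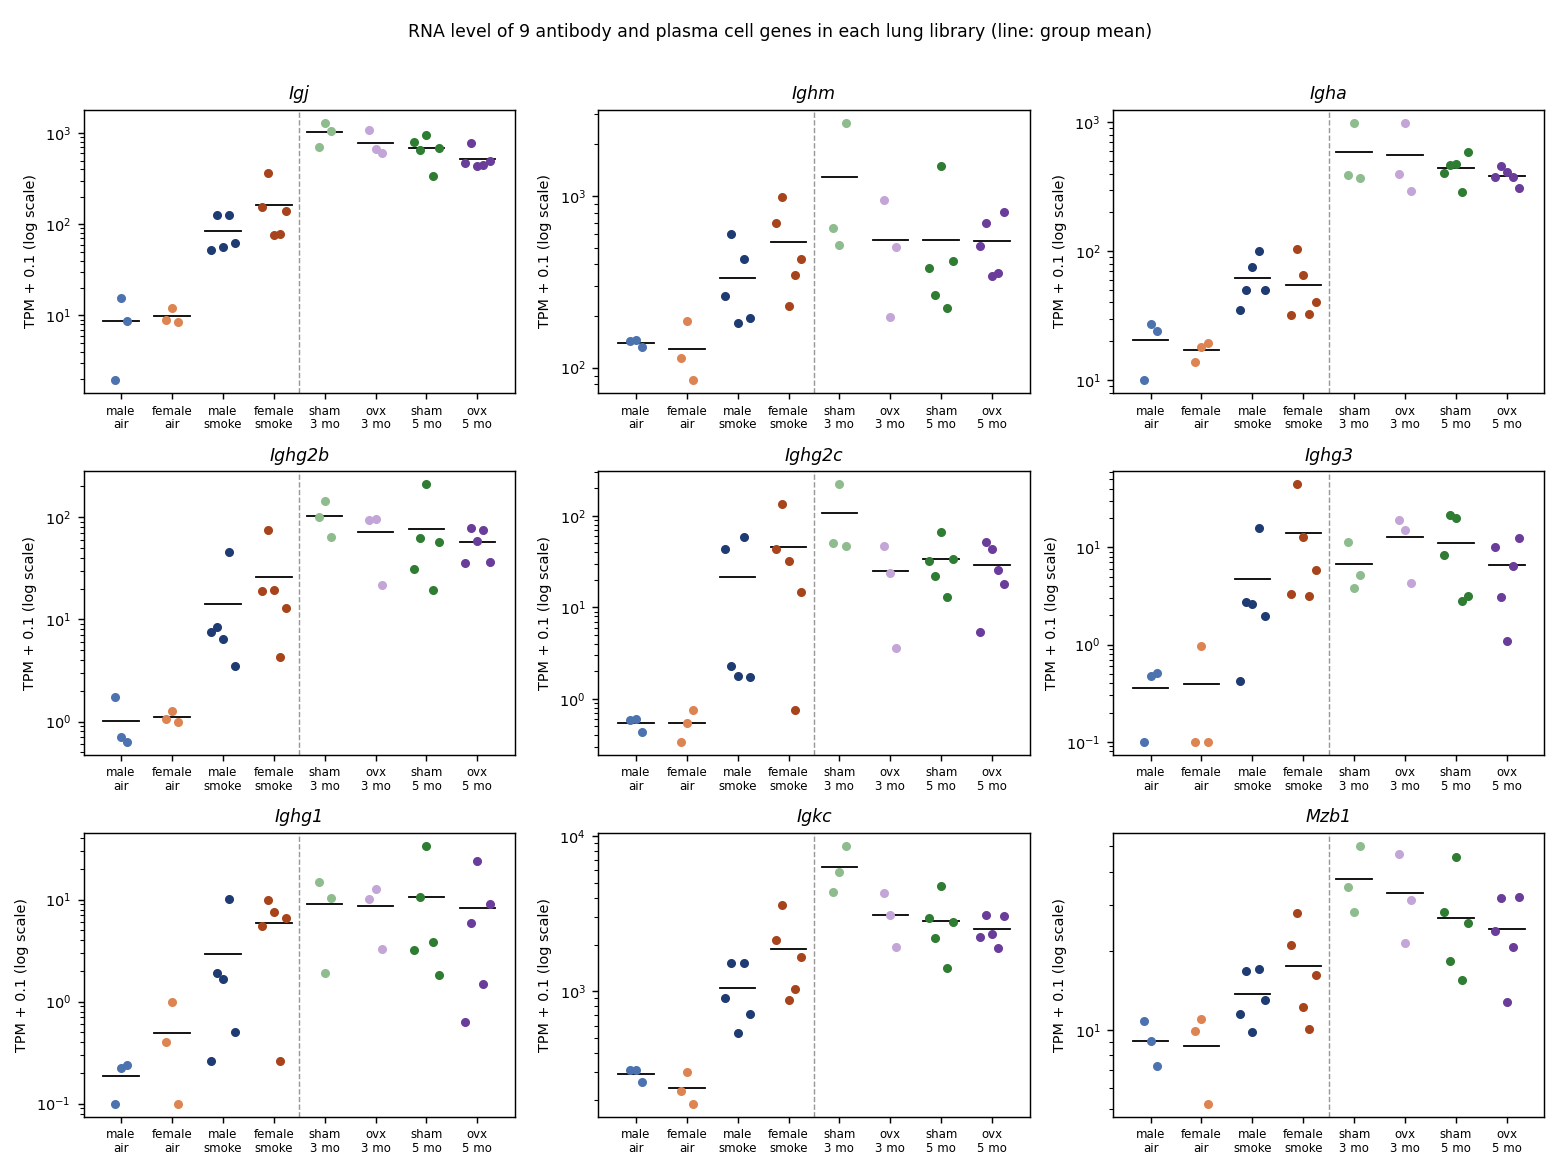
RNA level of each gene (TPM + 0.1, log axis) in every library of the 8 groups; points are libraries, the line is the group mean, and groups right of the dashed line are the second experiment, in which all mice were exposed to smoke. Igj lay at 1.86 to 15.4 TPM in the 6 air libraries and at 51.8 to 362 TPM in the 10 smoke libraries of the first experiment.

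Levels are given in TPM, so that genes can be compared with each other. In room air the lung held little antibody RNA other than that of IgM and kappa. Igj, the joining chain gene, was at 1.86, 15.4 and 8.71 TPM in the 3 male air libraries and at 8.77, 11.99 and 8.37 TPM in the 3 female air libraries. Ighm, the IgM gene, was at 144, 144 and 132 TPM in male air and at 114, 186 and 84.6 TPM in female air. Igha, the IgA gene, was at 9.91, 27.2 and 23.7 TPM in male air and at 13.6, 18.05 and 19.3 TPM in female air. Igha was thus below Ighm in all 6 air libraries, and the 4 IgG genes together reached only 1.41 to 3.40 TPM. The kappa gene Igkc was the most abundant member, at 309, 312 and 260.0 TPM in male air and 228, 303 and 189 TPM in female air. Mzb1 was at 5.13 to 10.9 TPM in the 6 air libraries.

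Smoke was compared with air within each sex of the first experiment, to see which antibody RNAs differ in the smoke-exposed lung. Igj was higher in smoke in both sexes, by 16.4-fold in females and 10.2-fold in males, and Igkc rose by 7.64-fold in females and 3.65-fold in males. In females Ighm rose by 4.15-fold and the IgG gene Ighg2b by 24.8-fold. Igha, the other 3 IgG genes and Mzb1 did not pass the test in either sex, and Ighm and Ighg2b did not in males, although all fold changes were above 1. By edgeR's quasi-likelihood test with Benjamini-Hochberg adjustment over 16361 genes, 4 of the 9 genes were called higher and 0 lower in females, against 4.52% of all genes tested called higher and 3.18% called lower. In males 2 of 9 were called higher and 0 lower, against 4.93% and 5.33% of all genes. The median log2 fold change of the 9 genes was 3.83 in females and 3.35 in males, beside -0.01 and 0.01 over all genes tested. All 9 genes passed the filter on low counts, but the IgG genes passed through the smoke libraries, where they were high, so their part in these counts and medians is fixed by that filter. In whole lung RNA, a change in the number of cells of a type and a change in the RNA per cell cannot be told apart.

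The joining chain separated smoke from air in every library. Igj was at 51.8, 126, 56.6, 128 and 61.7 TPM in the 5 male smoke libraries and at 155, 362, 75.5, 78.3 and 140.1 TPM in the 5 female smoke libraries. Every smoke library was above every air library of its sex, and the lowest smoke library, at 51.8 TPM, was more than the highest air library, at 15.4 TPM. The log2 fold change was 4.04 ± 0.73 (SE) in females, with an adjusted p of 0.0058 from edgeR, and 3.35 ± 0.73 in males, with an adjusted p of 0.0121. In females the call held in all 8 fits that left out 1 library, with adjusted p-values up to 0.0408. In males it held in 7 of 8 and ended without male air library 3 (adjusted p = 0.059).

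Igkc followed the same order. It was at 900.3, 1529, 543, 1531 and 715 TPM in male smoke and at 2142, 3597, 881, 1031 and 1668 TPM in female smoke, and no smoke library overlapped the air libraries of its sex. The log2 fold change was 2.93 ± 0.54 in females (edgeR adjusted p = 0.00598) and 1.87 ± 0.51 in males (adjusted p = 0.0357). The female call held in all 8 fits without 1 library (adjusted p up to 0.0448). The male call held in 2 of 8, and each of the 3 air libraries and of smoke libraries 1, 2 and 4 ended it when left out (adjusted p up to 0.137). Igkc was also set against the lambda light chain gene Iglc2, as a description. The lambda genes Iglc1 and Iglc3 gave no values here, so this is not a ratio of kappa to all lambda RNA. The ratio of Igkc to Iglc2 TPM was 8.32, 12.2 and 12.6 in female air and 55.7, 66.3, 28.0, 43.4 and 52.5 in female smoke, with no overlap. In males the ratio was 8.79, 24.4 and 13.75 in air and 19.5, 36.9, 15.1, 34.2 and 17.4 in smoke, and the groups overlapped. Iglc2 itself had log2 fold changes of 0.65 ± 0.30 in females (adjusted p = 0.226) and 0.93 ± 0.31 in males (adjusted p = 0.0648).

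Ighm was at 263, 604, 182, 428 and 194 TPM in male smoke and at 697, 985, 227, 346 and 431 TPM in female smoke. All 5 female smoke libraries lay above the highest female air library, at 186 TPM, and all 5 male smoke libraries above the highest male air library, at 144 TPM. The log2 fold change was 2.05 ± 0.54 in females (edgeR adjusted p = 0.0387) and 1.29 ± 0.52 in males (adjusted p = 0.155). The female call held in 2 of 8 fits without 1 library and ended without any 1 air library or without smoke library 1, 2 or 5 (adjusted p up to 0.174).

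Igha was at 34.6, 49.8, 75.8, 100.5 and 50.3 TPM in male smoke and at 31.9, 103, 65.7, 32.3 and 40.1 TPM in female smoke. Every smoke library was above every air library of its sex, the closest pair being 34.6 TPM in male smoke and 27.2 TPM in male air. The log2 fold changes were nearly the same, 1.65 ± 0.51 in females (edgeR adjusted p = 0.0712) and 1.69 ± 0.51 in males (adjusted p = 0.0533), and neither passed the test. Mzb1 was at 9.70 to 16.9 TPM in male smoke and at 9.97 to 27.8 TPM in female smoke, ranges that overlapped those in air, with log2 fold changes of 0.99 ± 0.32 in females (adjusted p = 0.0643) and 0.63 ± 0.32 in males (adjusted p = 0.245).

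The IgG genes were close to zero in air and varied widely in smoke. Ighg2b, the most abundant IgG gene in all 6 air libraries, was at 0.96, 1.18 and 0.896 TPM in female air and at 18.7, 74.6, 19.3, 4.23 and 12.7 TPM in female smoke. In males it was at 1.63, 0.609 and 0.534 TPM in air and at 7.40, 8.29, 6.34, 45.6 and 3.37 TPM in smoke. No smoke library overlapped the air libraries of its sex. The log2 fold change in females was 4.63 ± 1.25 (edgeR adjusted p = 0.0431), and this call held in 2 of 8 fits without 1 library, ending without any 1 air library or without smoke library 1, 2 or 3 (adjusted p up to 0.161). In males it was 3.99 ± 1.28 (adjusted p = 0.0704). Ighg2b held 8 to 11 counts in each female air library and 4 to 14 in each male air library. It passed the low-count filter through the smoke libraries, so nothing is read from its order or its call.

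Ighg2c, an IgG2 subclass gene that C57 strains carry, varied widely between smoke libraries. It was at 43.6, 2.17, 1.66, 58.8 and 1.62 TPM in male smoke and at 43.1, 136, 31.8, 0.653 and 14.5 TPM in female smoke, against 0.24 to 0.654 TPM in the 6 air libraries. Male smoke libraries 1 and 4 stood far above the other 3, and female smoke library 4 was level with air. Ighg2c did not pass the test in females (edgeR adjusted p = 0.0763) or in males (adjusted p = 0.122). In summed counts, 2387 in female smoke against 15 in female air gave a ratio per total count of 110.3 with a 95% interval of 66.7 to 197, and 1138 against 13 gave 51.9 with an interval of 30.3 to 97.9 in males. These exact intervals cover counting error only, which is far below the spread between libraries.

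Ighg3 was at 3.21, 44.2, 12.8, 3.03 and 5.80 TPM in female smoke and at 0.321, 2.65, 2.51, 15.6 and 1.85 TPM in male smoke, against 0 to 0.875 TPM in the 6 air libraries. Ighg1 was at 5.37, 9.72, 7.46, 0.163 and 6.55 TPM in female smoke and at 0.163, 1.80, 1.58, 10.1 and 0.403 TPM in male smoke, against 0 to 0.891 TPM in air. Neither passed the test in either sex, with edgeR adjusted p-values of 0.0634 and 0.156 for Ighg3 in females and males and of 0.111 and 0.0969 for Ighg1. For Ighg1 in males the air group held 2 counts in all, and 135 counts in smoke gave a ratio of 40.1 with a 95% counting interval of 10.9 to 334. In all, 6 of the 9 genes in females and 7 of 9 in males had every smoke library above every air library, as had 8.04% and 8.61% of all genes tested. The IgG genes among them passed the low-count filter through the smoke libraries, so nothing is read from these counts. For Ighg1 in males the order rested on 1 count in smoke library 1 against 1 count in each of air libraries 2 and 3.

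**Figure D2:**
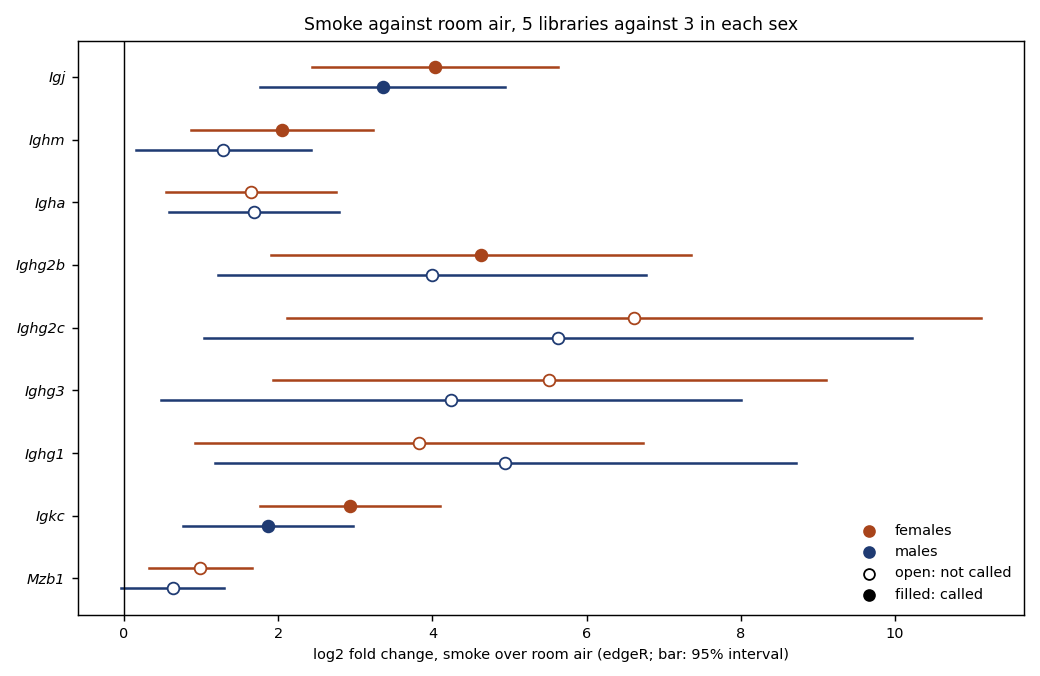
Log2 fold change of smoke over room air (horizontal axis, edgeR) for each gene in females and males, with 95% intervals; filled points passed an adjusted p of 0.05. Intervals were widest for the IgG genes, and Igj and Igkc were called in both sexes.

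Other transcripts moved between the air and smoke groups as well. The 7 erythroid genes measured, the haemoglobin genes among them, were all called higher in female smoke, with a median log2 fold change of 2.54, and 0 were called in males (median 0.65). Their summed level was 6692 to 8234 TPM in female air, 17895 to 42644 TPM in female smoke, 10319.6 to 35812 TPM in male air and 23367 to 33848 TPM in male smoke. The 8 liver genes summed to 4.21 to 259 TPM in female air, 1.2 to 19.5 TPM in female smoke, 2.36 to 532 TPM in male air and 1.04 to 2.53 TPM in male smoke. Of the 6 neutrophil and macrophage genes tested, 2 were called higher and 0 lower in each sex. These were S100a8, by 2.35-fold in females and 2.97-fold in males (edgeR adjusted p = 0.0097 and 0.00156), and S100a9, by 2.28-fold and 2.2-fold (adjusted p = 0.00986 and 0.01), both calcium-binding proteins abundant in neutrophils. The summed neutrophil and macrophage list overlapped between air and smoke in both sexes, at 831 to 1393 TPM in female air, 762 to 1304 TPM in female smoke, 613 to 863 TPM in male air and 717 to 992 TPM in male smoke. Of the 8 lung epithelium genes, 0 were called in females and 3 were called higher in males: Ager by 1.37-fold, Hopx by 1.41-fold and Nkx2-1 by 1.23-fold (adjusted p = 0.0153, 0.0175 and 0.0443). Summed, the epithelium list was at 183375 to 224927 TPM in female air, above every female smoke library at 115979 to 177793 TPM, and at 117520 to 195795 TPM in male air against 111613 to 192244 TPM in male smoke. The part of blood content, liver RNA, neutrophils or epithelium in the antibody gene values was not tested. Without the libraries over 100 TPM of Alb, which leaves 2 air libraries per sex, Igj and Igkc were called in females (edgeR adjusted p = 0.023 and 0.0334) and neither was in males (0.0588 and 0.111).

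Other genes of B cells and plasma cells were counted as lists, beside the 4.52% of all genes tested that were called higher and the 3.18% called lower in females, and the 4.93% and 5.33% in males. Of 19 B cell genes tested, 2 were called higher in female smoke and 0 in male smoke: Cxcr5, a receptor for entry into B cell follicles, rose by 1.66-fold (adjusted p = 0.00317) and Cd22, a B cell surface lectin, by 1.5-fold (adjusted p = 0.0371). The summed level of these genes was 176 to 313 TPM in female air and 242 to 356 TPM in female smoke, and 219 to 298 TPM in male air and 251 to 361 TPM in male smoke. Of 19 plasma cell genes tested, 3 were called higher and 1 lower in females, and 0 higher and 1 lower in males. Tnfrsf17, the plasma cell survival receptor BCMA, rose in females from 0.0325 ± 0.0282 to 0.534 ± 0.367 CPM (counts scaled by library total; SD over 3 and 5 libraries, edgeR adjusted p = 0.0486). Female air held 2 counts of it in all and female smoke 47, a ratio per total count of 16.3 with a 95% counting interval of 4.27 to 138.4. Tnfrsf17 too passed the low-count filter through the smoke libraries, so nothing is read from its place among the 3. Bhlha15, a transcription factor of secretory cells, rose by 1.73-fold (adjusted p = 0.0479) and Ell2, an elongation factor that favours the secreted form of the heavy chain, by 1.30-fold (adjusted p = 0.044). Cd38 fell by 2.11-fold in females and 1.97-fold in males. Xbp1 and Prdm1, regulators of the plasma cell state that other lung cells also express, had log2 fold changes of -0.10 ± 0.08 and 0.02 ± 0.24 in females. The summed plasma cell list was level, at 873 to 964 TPM in female air and 892 to 948 TPM in female smoke. Abundant genes of the list outweigh Tnfrsf17 in this sum, such as Cd38 with a mean of 61.8 CPM in female air and 29.3 CPM in female smoke. A level sum therefore does not show whether plasma cell RNA changed. Median log2 fold changes in females were 0.42 for the B cell list and 0.07 for the plasma cell list.

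Genes that recruit plasma cells were called in both directions. Cxcl13, the chemokine that draws B cells, rose by 3.51-fold in females (adjusted p = 0.0456) and 3.56-fold in males (adjusted p = 0.0358), while Cxcl12, which holds plasma cells in bone marrow, fell by 1.45-fold and 1.47-fold. Of the 12 genes of this list tested, 1 was called higher and 2 lower in each sex, the other falls being Cxcr4 in females and Tgfb1 in males. Over all genes tested, 4.52% were called higher and 3.18% lower in females, and 4.93% and 5.33% in males. Of 10 germinal centre and class switch genes tested, 0 were called in females, and in males S1pr2 was called higher and Bcl6 lower. Of 10 antibody receptor and transport genes, 0 were called in either sex. Pigr, the receptor that carries joined IgA and IgM across epithelium, had a log2 fold change of -0.05 ± 0.54 in females and -0.16 ± 0.55 in males.

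Sex was asked in smoke, in air and as a difference of the smoke effects, and 0 of the 9 genes were called in any of these by edgeR, limma or DESeq2. In smoke 8 of 9 genes were higher in females, although 2 of the 9 changed sign under at least 1 alternative, with 0 at an unadjusted p under 0.05, while 0.189% of all genes tested were called. Igj was 1.87-fold higher in female smoke than in male smoke (95% interval 0.88 to 3.98, edgeR adjusted p = 0.732) and Igkc 1.75-fold higher (0.952 to 3.21, adjusted p = 0.689). In air 5 of 9 were higher and 4 lower in females, but 7 of the 9 changed sign under at least 1 alternative; 0.177% of all genes were called. The smoke effect on Igj was larger in females by 0.68 ± 0.96 on the log2 scale, within its error (interval -1.41 to 2.78, edgeR adjusted p = 0.974), and that on Igkc by 1.06 ± 0.68 (-0.40 to 2.53, adjusted p = 0.893). For this interaction 0.00611% of all genes were called.

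The joining chain was set against the IgM heavy chain, again as a description. The ratio of Igj to Ighm TPM was 0.0129, 0.107 and 0.066 in male air and 0.0772, 0.0645 and 0.0989 in female air. It was 0.197, 0.208, 0.311, 0.298 and 0.319 in male smoke and 0.223, 0.368, 0.333, 0.226 and 0.325 in female smoke. All 10 smoke libraries were above all 6 air libraries, and the smoke libraries of both sexes lay in a narrow range although Igj itself varied 4.79-fold between female smoke libraries. The ratio of Igha to Ighm did not separate smoke from air, at 0.069 to 0.228 in the 6 air libraries and 0.0457 to 0.417 in the 10 smoke libraries.

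**Figure D3:**
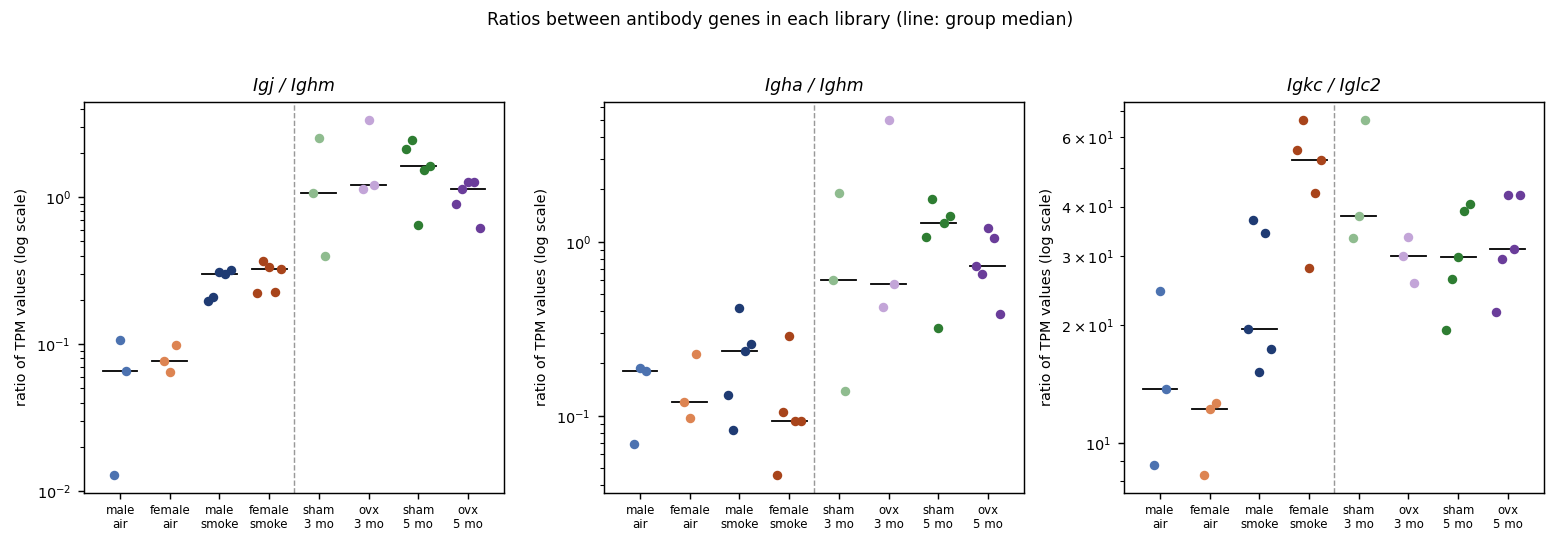
Ratios of TPM values in every library of the 8 groups (log axes): Igj to Ighm, Igha to Ighm, and Igkc to Iglc2, a lambda constant gene. Points are libraries, lines group medians, and groups right of the dashed line are the second experiment. The Igj to Ighm ratio was 0.013 to 0.107 in air, 0.197 to 0.368 in the smoke groups of the first experiment and 0.397 to 3.36 in the second experiment.

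The make-up of heavy chain RNA was then set out as the share of each class in the summed TPM of the 6 heavy chain genes, a description with no test. Ighm made up 83.3% to 92.3% in male air and 80.3% to 89.7% in female air. Its share was 75.3, 90.3, 67.4, 65.0 and 77.1% in the 5 male smoke libraries and 87.2, 72.8, 62.4, 89.5 and 84.4% in the 5 female smoke libraries, which overlapped air. Smoke libraries of both sexes thus still held mostly IgM heavy chain RNA, while the summed heavy chain level went from 106 to 207 TPM in female air to 364 to 1352 TPM in female smoke, and from 156 to 173 TPM in male air to 251 to 668 TPM in male smoke.

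The IgG share was 0.9% to 1.64% in the 6 air libraries and 2.09% to 19.8% in the 10 smoke libraries, with no overlap. In air this share rests on 0 to 14 counts per IgG gene and library. The IgG genes passed the low-count filter through the smoke libraries, so nothing beyond the values is read from this order. The mean IgG share was 1.42% ± 0.24 (SD, n = 3) in female air and 11.6% ± 7.75 (n = 5) in female smoke, and 1.06% ± 0.26 (n = 3) in male air and 8.82% ± 7.94 (n = 5) in male smoke. The IgA share was 8.71% to 18.3% in female air and 3.99% to 18.03% in female smoke, and 6.37% to 15.8% in male air and 7.45% to 28.1% in male smoke. It overlapped in both sexes.

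**Figure D4:**
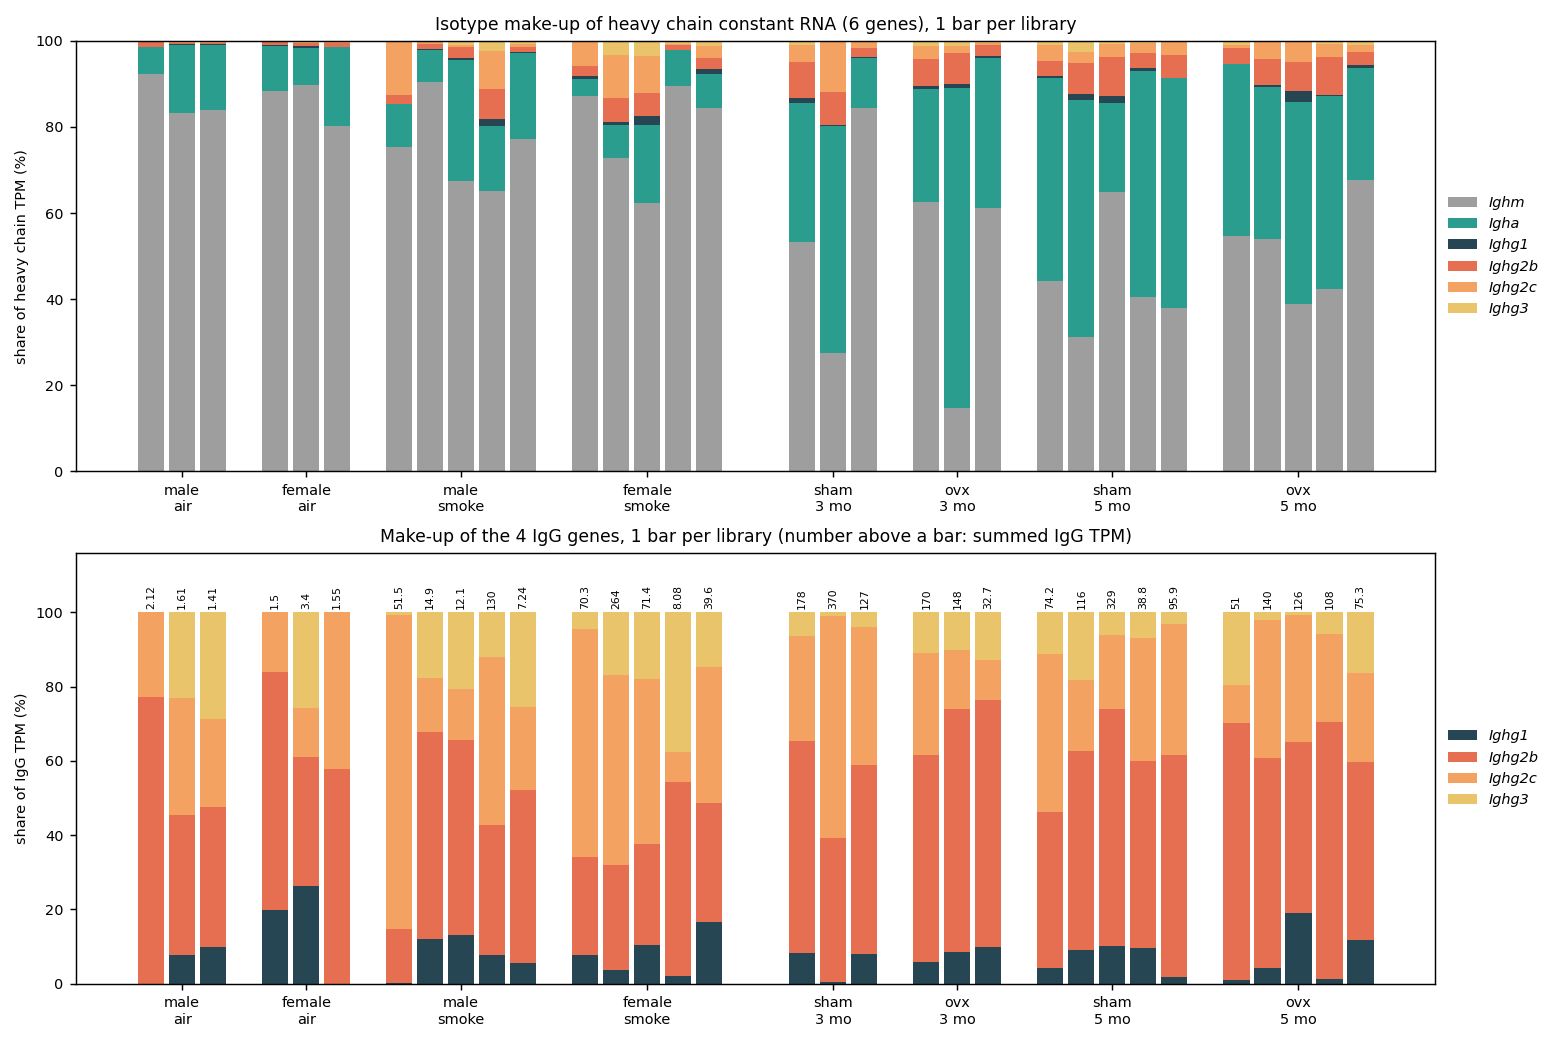
Upper panel, share of each heavy chain gene in the summed heavy chain TPM (percent), 1 bar per library in the 8 groups; lower panel, share of each IgG gene in the summed IgG TPM, with that sum above the bar. The IgM share was at least 62.4% in all 16 libraries of the first experiment, and Ighg2c led the IgG genes in 4 of 5 female smoke libraries.

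Which IgG gene led also differed between libraries. Ighg2b led in 24 of the 32 libraries and Ighg2c in 8. Ighg2c led in 4 of 5 female smoke libraries, 2 of 5 male smoke libraries, 1 of 3 sham libraries at 3 months and 1 of 5 at 5 months, and in 0 of the air and ovariectomy libraries. In male smoke library 1 it made up 84.7% of IgG, and the ratio of Ighg2c to Ighg2b was 5.89, 0.261, 0.262, 1.29 and 0.481 in the 5 male smoke libraries. In the 5 female smoke libraries the ratio was 2.30, 1.82, 1.65, 0.154 and 1.14. The IgG genes of air libraries rest on few counts, at most 14 per gene and library, so their order in air is weak.

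In the second experiment joining chain and IgA RNA were at a higher level in nearly all libraries. Igj was at 697, 1309 and 1063 TPM in the 3 sham libraries at 3 months and at 1078, 664 and 613 TPM in the 3 ovariectomy libraries at 3 months. At 5 months it was at 806, 647, 966, 339 and 683 TPM in sham and at 465, 788, 436, 449 and 495 TPM in ovariectomy. The 16 libraries lay between 339 and 1309 TPM, and only the highest female smoke library of the first experiment, at 362 TPM, reached into that range. Igha was at 393, 987 and 372 TPM in sham and 399.8, 996 and 291 TPM in ovariectomy at 3 months, and at 407, 464, 475, 287 and 586 TPM in sham and 376, 456, 413, 376 and 310.1 TPM in ovariectomy at 5 months. The lowest of these 16 values, 287 TPM, was above the highest of the first experiment, 103 TPM.

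Set beside each other, the female smoke libraries without surgery and the sham libraries, both at 5 months of smoke, had Igj at 162 ± 117 and 688 ± 232 TPM (SD, n = 5 each), Igha at 54.6 ± 30.4 and 444 ± 109 TPM, Igkc at 1864 ± 1093 and 2834 ± 1244 TPM, and Ighm at 537 ± 304 and 555 ± 528 TPM. The sham libraries were thus above nearly all female smoke libraries in Igj and above all of them in Igha, while the ranges of Ighm and Igkc overlapped. No test was made, since surgery and experiment cannot be told apart. IgA shares showed it too: Igha made up 3.99% to 18.03% of heavy chain TPM in female smoke and 47.2, 55.0, 20.7, 52.4 and 53.3% in sham at 5 months. The Igj to Ighm ratio was 2.11, 2.45, 0.649, 1.52 and 1.64 in those sham libraries.

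By median TPM, the order of the groups for Igj was sham at 3 months (1063.3), sham at 5 months (683), ovariectomy at 3 months (664), ovariectomy at 5 months (465), female smoke (140.1), male smoke (61.7), female air (8.77) and male air (8.71). For Igha it was sham at 5 months (464), ovariectomy at 3 months (399.8), sham at 3 months (393), ovariectomy at 5 months (376), male smoke (50.3), female smoke (40.1), male air (23.7) and female air (18.05). Neighbours within the second experiment overlapped in both orders, as did the male and female groups of the same exposure. For Ighm the median was highest in sham at 3 months (653), followed by ovariectomy at 5 months (515) and at 3 months (507), female smoke (431), sham at 5 months (382), male smoke (263), male air (144) and female air (114), and the 5 highest groups all overlapped.

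Ovariectomy was compared with sham surgery at each exposure time, to ask whether the loss of ovarian hormones changes these RNAs under smoke. At 3 months 0 of 9 genes were called, as were 0.0% of 16874 genes. Igkc was at 4385, 5847 and 8593 TPM in sham and at 4310.1, 3104 and 1934 TPM in ovariectomy, and Ighg2c was at 50.1, 221 and 47.3 TPM in sham and at 46.8, 23.7 and 3.53 TPM in ovariectomy. In both genes every ovariectomy library was below every sham library, although ovariectomy library 1 came close to the lowest sham library. These were 2 of the 9 genes, while 7.72% of all genes tested had such an order. The log2 fold change of Igkc was -0.97 ± 0.41 (edgeR adjusted p = 0.504) and that of Ighg2c was -2.08 ± 0.96 (adjusted p = 0.536), so neither passed. Igj had a log2 fold change of -0.34 ± 0.37 (interval -1.14 to 0.46, edgeR adjusted p = 0.825). Without the libraries over 100 TPM of Alb, ovariectomy libraries 2 and 3, it became 0.08, a value that rests on ovariectomy library 1 alone.

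At 5 months 0 of 9 genes were called between ovariectomy and sham, while 1.36% of all genes were. The log2 fold change was -0.31 ± 0.28 for Igj (interval -0.93 to 0.30, edgeR adjusted p = 0.659) and -0.09 ± 0.31 for Igkc (interval -0.78 to 0.59, adjusted p = 0.926). As folds these intervals ran from 0.525 to 1.23 for Igj and from 0.584 to 1.51 for Igkc. Among the IgG genes they were wider, reaching from 0.18 to 3.71. Of 19 other plasma cell genes tested, 2 fell with ovariectomy at 5 months and 0 rose: Creld2 by 1.34-fold (adjusted p = 0.0145) and Edem1 by 1.31-fold (adjusted p = 0.0187), both genes of protein folding and turnover in the endoplasmic reticulum that most cells express. Of 13 plasma cell recruitment and survival genes tested, Tnfsf13b, the B cell survival factor BAFF, rose by 1.39-fold (adjusted p = 0.0361).

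For 5 against 3 months of smoke, averaged over both surgeries, 0 of 9 genes were called and 0.13% of all genes were. Of the 9 genes, 8 were lower at 5 months, and 2 of the 9 changed sign under at least 1 alternative. At an unadjusted edgeR p under 0.05 there were 2 of 9 here and 1 of 9 with ovariectomy at 3 months. The share of all genes under that p was not taken, so nothing is read from these counts. Igj had a log2 fold change of -0.53 ± 0.23 (edgeR adjusted p = 0.334) and Igkc one of -0.69 ± 0.25 (adjusted p = 0.252). For the interaction of surgery and time 0 of 9 were called, as were 0.0% of all genes, and 0 were under an unadjusted p of 0.05.

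Within the second experiment the class shares varied widely between libraries of 1 group. The IgM share of heavy chain TPM was 53.4, 27.6 and 84.3% in the 3 sham libraries at 3 months and 62.5, 14.7 and 61.1% in the 3 ovariectomy libraries at 3 months. Ovariectomy library 2 held 74.2% IgA, the highest IgA share of all 32 libraries, with Igha at 996 TPM and Ighm at only 197 TPM. Sham library 3 at 3 months held 84.3% IgM, with Ighm at 2681 TPM, the highest of all. At 5 months the IgM share was 44.2, 31.3, 64.9, 40.6 and 38.0% in sham and 54.7, 54.0, 38.9, 42.4 and 67.6% in ovariectomy, ranges that overlapped. The IgG share was 3.94% to 19.7% over all 16 libraries.

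The spread between libraries of a group differed from gene to gene. The ratio of the highest to the lowest library of a group was 1.43 to 8.3 for Igj, 1.2 to 4.08 for Igkc and 1.49 to 2.97 for Mzb1 over the 8 groups, while for Ighg2c it reached 208 in female smoke and 36.3 in male smoke. Igha was the steadiest heavy chain gene in the second experiment at 5 months, with a coefficient of variation of 13.9% in ovariectomy and 24.5% in sham, beside 37.7% and 95.2% for Ighm.

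How the genes moved together across libraries was described by Spearman's rho within each experiment, over 16 libraries, with no test, since the libraries of the first experiment include the split between air and smoke and all genes of a library share its depth. Ighm and Mzb1 had a rho of 0.87 in the first and 0.91 in the second experiment, and Igj and Igkc 0.93 and 0.85. Ighm and Igha had 0.69 in the first and -0.25 in the second. Of 14526 genes outside the antibody loci, those most like Ighm by the lower of both values were Mzb1, A530040E14Rik (0.77 and 0.80), Cd22 (0.76 and 0.73), Cacna1e (0.79 and 0.69) and Gm8995 (0.81 and 0.68). Those most like Igj were Pisd-ps2 (0.72 and 0.78), Ms4a6b (0.78 and 0.72), Adam33 (0.76 and 0.71), Mzb1 (0.81 and 0.70) and Gbp8 (0.69 and 0.74). Those most like Igkc were Gbp8 (0.74 and 0.77), Ganc (0.73 and 0.78), Mzb1 (0.86 and 0.71), A530040E14Rik (0.71 and 0.71) and Adam33 (0.76 and 0.69). Those most like Igha were Cyp4v3 (0.80 and 0.64), Slc35d2 (0.64 and 0.68), Naip2 (0.66 and 0.59), Parp4 (0.63 and 0.59) and the macrophage lysozyme gene Lyz2 (0.75 and 0.57).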

How the data were processed

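Per the labels' protocols, lung RNA came from a Trizol extraction and a NEBNext Ultra 2 kit gave the libraries. The submitters' processing notes name FastQC and the builds GRCm38 and mm10; an aligner or counter is not given in the sources used here. The authors deposited whole-number counts per gene and a normalized table, whose header names no unit. Its deposited values were TPM: 100.0% equal count over gene length, scaled, within 1e-06.

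Counts of each experiment were tested in R 4.3.3 with edgeR 4.0.16 (filterByExpr, TMM scaling, 1 mean per group, robust quasi-likelihood F test, Benjamini-Hochberg adjustment over all genes, called under 0.05); 16361 and 16874 genes passed the filter. Alternatives used RLE factors, other filters, limma 3.58.1, DESeq2 1.42.0, other sets of libraries and, added after seeing the data, leaving out the libraries over 100 TPM of Alb. The code was checked on simulated counts. Shares and ratios use TPM. Counting intervals are exact (Clopper-Pearson) and cover counting error only. Sequences are from GENCODE M21, which carries the files' build. Each library's depth, 13790052 to 24497332 counts, limits the IgG genes most.

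Members and lists were chosen with earlier results of these data known. The rule names every member in every comparison; outside smoke against air, where none was called, values are printed for Igj, Igkc and the members whose groups did not overlap, chosen with the values known. Likeness genes were the 5 with the highest lower rho of both experiments. Lists were counted at the same threshold, and up to 4 called genes per list and direction could be named.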

Additional observations from a re-analysis of the deposited data

Results flagged for a closer look

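Within groups of 5 libraries, 10 of 36 sets of values (9 genes in 4 groups) had a highest library far from the others by Dixon's criterion. Its rate of about 1 in 20 holds for normally distributed values, which TPM need not be. No excess is therefore read from this count. In female smoke library 2, Igj was at 362 TPM (next highest library 155), Ighg2b at 74.6 TPM (19.3) and Ighg3 at 44.2 TPM (12.8). In male smoke library 4, Ighg1 was at 10.1 TPM (1.80), Ighg2b at 45.6 TPM (8.29) and Ighg3 at 15.6 TPM (2.65). In sham library 3 at 5 months, Ighm was at 1488 TPM (417), Ighg1 at 33.3 TPM (10.4) and Ighg2b at 210 TPM (62.1). In ovariectomy library 2 at 5 months, Igj was at 788 TPM (495). The 9 genes of 1 library share its cells, so these are not separate events.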

How the results depend on the processing

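Fits without 1 library called 2 to 5 of the 9 genes in females and 0 to 2 in males. The counts of 4 in females and 2 in males became 2 and 1 with no filter on low counts, 2 and 1 with only the groups compared, 2 and 0 without the libraries over 100 TPM of Alb, and 9 and 7 with DESeq2. With limma-trend on log2(TPM + 1) they were 6 and 4. With all 32 libraries in 1 fit they were 6 and 3, and with RLE size factors or a strict filter 4 and 2. With the replicate block the counts were 5 and 2; the replicate numbers did not pair the libraries, since in 0 of 12 group pairs did all same-numbered correlations exceed 0.1. The share of all genes called was taken for the main fit only, so these counts are not read as a result about the 9 genes. The causes were not tested. In the other 7 comparisons 0 genes were called under any of these settings. All 18 smoke log2 fold changes kept their sign in all fits. The IgG genes among them passed the low-count filter through the smoke libraries, so nothing is read from their sign. Outside the smoke effects, the number of the 9 genes that changed sign under at least 1 setting was 5 for the interaction of sex and smoke, 2 for sex in smoke, 7 for sex in air, 4 and 6 for ovariectomy at 3 and 5 months, 2 for 5 against 3 months and 6 for the interaction of surgery and time. Among them was Igj in the interaction of sex and smoke without male air library 2 (-0.069, with 1.171 at the highest over fits without 1 library). Another was Igj with ovariectomy at 3 months without the Alb libraries (0.084), a fit that leaves 1 ovariectomy library. Igkc with ovariectomy at 5 months changed sign without sham library 3 (0.164, with -0.26 at the lowest). The Ighm and Igha shares moved by less than the spread between libraries when taken from counts. This did not hold for every IgG share. In female air the IgG share was 1.165, 1.638 and 1.47% from TPM and 0.875, 1.211 and 1.194% from counts. Depth limits the IgG genes in air, at 0 to 14 counts per gene and library.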
